A study of Mus musculus with 6 samples.

Results

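The keratin gene clusters were examined for accessible chromatin in mouse colon cancer organoids and in organoid lines regrown from tumours. Members were all ATAC-seq peaks of the deposited table that overlapped either of 2 windows in mm9. The type I window, chr11:98990000-100150000, spans 1160 kb and holds Krt20 and Krt19. The type II window, chr15:101100000-101900000, spans 800 kb and holds Krt7 and Krt8, together with Krt18. The windows held 66 and 57 peaks, 123 of the 43020 in the table, and the rule uses position alone. ATAC-seq tags open chromatin with the transposase Tn5, so more reads over a region mean greater accessibility.

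Both groups were organoids with the genotype AKP, as the labels name it without spelling out the alleles. Naive organoids, 3 libraries, had not been transplanted. The primary group held 3 libraries of organoid lines from primary tumours that formed after naive AKP organoids were implanted into the colon of C57Bl6 recipients under colonoscopy. These lines were grown on in culture until cancer cells alone remained, so time in the mouse, regrowth and passage all separate them from the naive group and cannot be told apart. The labels do not say whether a line was 1 clone or whether the naive libraries came from separate cultures. P-values set the difference between the groups against the spread between these libraries. They therefore may not extend to other cultures or tumours. Total counts in peaks ran from 1185356 in naive replicate 1 to 5987545 in naive replicate 2. The median type I peak held 16 reads and the median type II peak 26 reads in the shallower of these, against 72.5 and 103 in the deeper. In bulk ATAC-seq, a higher share of cells with an open site and wider opening in each cell cannot be told apart.

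Keratins are the intermediate filament proteins of epithelial cells. A type I keratin pairs with a type II keratin to form a filament, and the gene families lie in separate clusters, with the type I gene Krt18 placed at the end of the type II cluster. Simple epithelia such as the gut lining use Krt8 with Krt18, Krt19 and Krt20, the last a protein of differentiated surface cells, while Krt7 is typical of ducts. Stratified epithelia use Krt5 with Krt14 in basal cells and Krt1 with Krt10 above them, Krt6a, Krt16 and Krt17 are known from wounds and tumours, and other members build hair and its root sheath. In RefSeq's order of genes (GRCm38.p6), Krt80 and Krt7 open the type II cluster, hair, root-sheath and epidermal genes follow, and Krt8 and Krt18 close it. On chromosome 11 Krt222, Krt24 to Krt28, Krt10, Krt12, Krt20 and Krt23 come first, then 23 genes named as keratin-associated hair proteins and the hair keratins, then Krt13, Krt15, Krt19, Krt9, Krt14, Krt16, Krt17 and Krt42. RefSeq lists 27 keratin genes on each of the 2 chromosomes. Its build differs from that of the peaks, so no peak was assigned to a gene, and peaks are given by their mm9 position.

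Promoters of the simple-epithelial keratins Krt7, Krt8, Krt18 and Krt20 are shown because such genes give the clusters their part in gut epithelium. Those of Krt19 and Krt23 are not shown. Each run holds 250 bases before and 25 after the RefSeq start in GRCm38.p6, and those positions must not be set against the mm9 peaks. Capitals mark TATAAA (the TATA box), GGGCGG (the GC box) or TGANTCA (the AP-1 site), searched on both strands. The regions are chr15:101412153-101412427 (plus strand), chr15:102004318-102004592 (minus), chr15:102027966-102028240 (plus) and chr11:99438129-99438403 (minus).
Krt7: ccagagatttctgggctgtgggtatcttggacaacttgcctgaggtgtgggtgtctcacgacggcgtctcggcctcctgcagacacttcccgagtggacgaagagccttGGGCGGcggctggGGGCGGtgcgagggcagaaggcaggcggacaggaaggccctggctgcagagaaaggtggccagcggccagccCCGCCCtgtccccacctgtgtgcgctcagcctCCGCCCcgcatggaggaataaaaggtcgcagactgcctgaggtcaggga
Krt8: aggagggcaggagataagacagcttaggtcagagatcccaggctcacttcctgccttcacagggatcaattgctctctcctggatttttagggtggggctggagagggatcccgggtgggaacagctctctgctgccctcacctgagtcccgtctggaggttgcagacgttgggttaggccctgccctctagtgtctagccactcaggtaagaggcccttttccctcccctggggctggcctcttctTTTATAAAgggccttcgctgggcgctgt
Krt18: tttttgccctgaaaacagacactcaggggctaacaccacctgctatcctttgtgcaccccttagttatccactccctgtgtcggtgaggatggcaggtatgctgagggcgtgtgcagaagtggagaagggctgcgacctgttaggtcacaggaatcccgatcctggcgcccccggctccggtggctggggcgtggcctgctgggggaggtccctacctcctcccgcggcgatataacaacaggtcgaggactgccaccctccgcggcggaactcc
Krt20: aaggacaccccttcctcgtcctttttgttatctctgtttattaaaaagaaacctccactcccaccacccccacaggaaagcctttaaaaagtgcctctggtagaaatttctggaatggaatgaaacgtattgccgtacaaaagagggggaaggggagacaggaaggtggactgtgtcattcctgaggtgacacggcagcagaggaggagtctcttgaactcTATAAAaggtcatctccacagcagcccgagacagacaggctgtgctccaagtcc
Krt7 carried 4 GC boxes, Krt20 a TATA box that began 29 bases before the start, and Krt8 a TATA box across the start itself, read on both strands in overlapping bases. TATAAA was in 19 of 37 promoters of 36 keratin genes of both chromosomes (51.4%) and in 13% of all 32851 promoters of that length. GGGCGG was in 2 of the 37 (5.41%) and in 34.4% of all, and TGANTCA in 2 (5.41%) and in 7.35%. A match is a run of letters, and whether any peak covers these promoters was not determined. The shares leave out keratin genes of RefSeq's list that had no promoter of that length in the set searched.

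Accessibility in the keratin windows changed mostly upwards in the lines from primary tumours. Peaks were tested over the whole table with edgeR's quasi-likelihood test and called at a Benjamini-Hochberg adjusted p under 0.05. Of 113 tested members, 21 rose and 3 fell in primary lines against naive organoids, 21.2% called where 14.4% of all 36179 tested peaks were called. By direction, 18.6% of members were higher against a background of 8%, and 2.65% were lower against 6.4%. The type II window took most of the calls. There 14 of 53 tested peaks rose and 2 fell (30.2% called). In the type I window 7 of 60 rose and 1 fell (13.3% called), a share near the background. On the rest of chromosome 15 13.9% of tested peaks were called, and on the rest of chromosome 11 12.2%. These calls also leaned upwards, with 9.23% higher and 4.68% lower on chromosome 15 and 8.05% and 4.15% on chromosome 11. The difference between the windows was not tested, and members were not matched to the other peaks by strength.

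The median log2 fold change (primary minus naive) was 0.34 over the type II peaks, 0.14 over the type I peaks and -0.01 over all tested peaks. Above 0 lay 39 of 53 type II peaks (73.6%) and 38 of 60 type I peaks (63.3%). The share was 49.7% over all tested peaks, 55.1% on the rest of chromosome 15 and 53.2% on the rest of chromosome 11. Single libraries moved the window medians. The type II median was 0.18 without primary replicate 2 and 0.52 without naive replicate 1, and the type I median 0.27 without primary replicate 3 and 0.23 without naive replicate 2. With limma-voom the type I median was 0.23. An offset per library and chromosome, the median log ratio of the chromosome's tested peaks, gave 0.10 for type I and 0.27 for type II. All 3 primary libraries lay above all 3 naive libraries at 18 type II and 15 type I peaks, 29.2% of tested members against 15.5% of all tested peaks. They lay below at 6 and 3, 7.96% against 15.3%. Outside the windows, 17.8% of tested peaks lay above and 12.2% below on chromosome 15, and 16.5% and 12.8% on chromosome 11. The rest of each chromosome barely moved, with medians of log2(CPM + 1) relative to the naive mean of 0.03 to 0.08 on chromosome 11 and 0.07 to 0.09 on chromosome 15 in the primary libraries. The type I window medians on this scale were 0.25, 0.30 and 0.02 in primary replicates 1 to 3. In naive replicates 1 to 3 they were 0.04, -0.05 and 0.13, so primary replicate 3 lay within the naive range. CPM here are counts per 1000000 of the library total after TMM scaling. Another 10 members, 6 of type I and 4 of type II, held too few reads to be tested, with mean CPM from 1.73 to 5.16. Without naive replicate 2 the members called were 4 of type I and 10 of type II, and the background was 5.82%. With abundance-trended offsets the type I split was 8 higher and 0 lower, and with total-count scaling 7 and 0. These settings called 14.4% and 13.6% of all tested peaks.

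**Figure D1:**
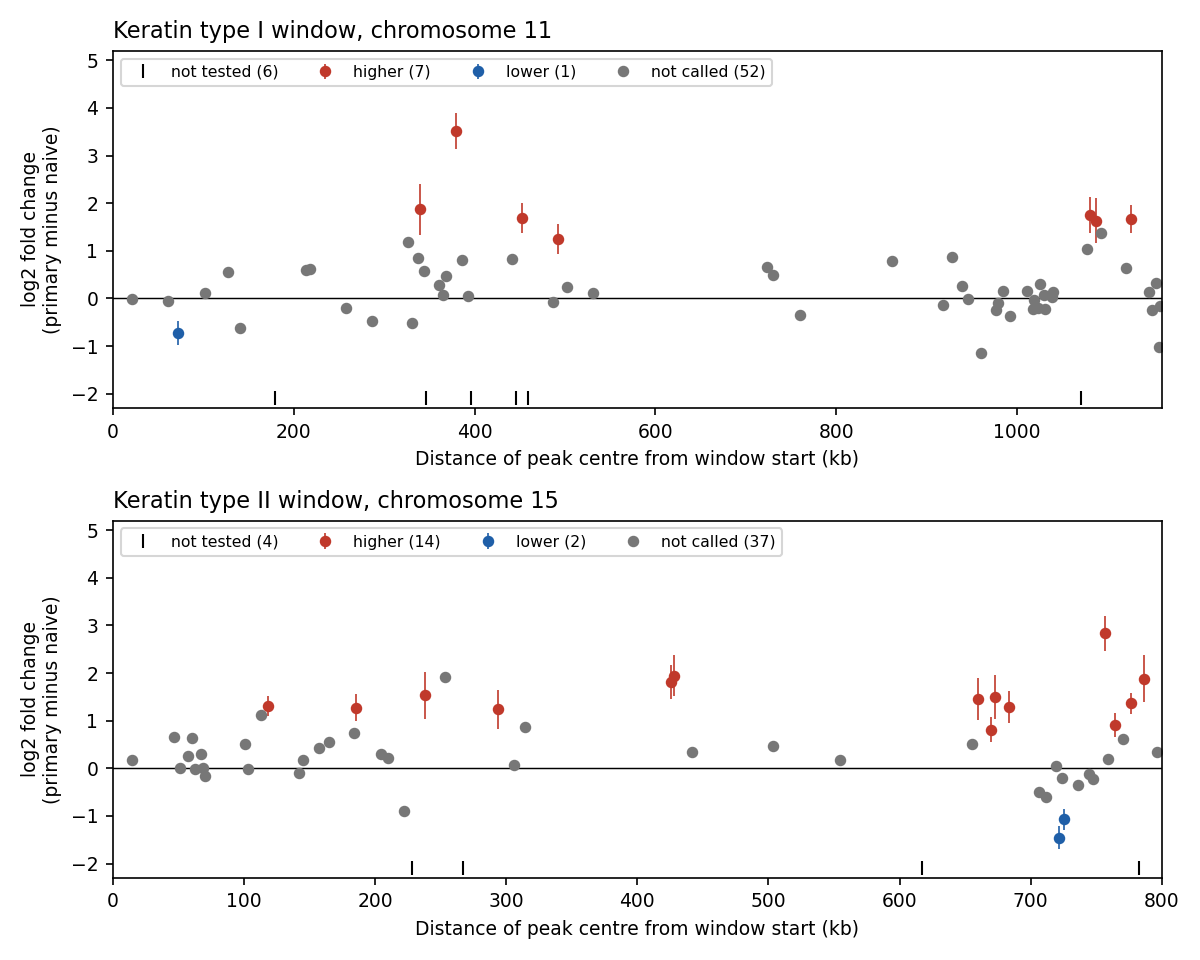
Log2 fold change (primary minus naive, vertical axis) of every tested peak against the distance of its centre from the start of the type I window (top) or type II window (bottom), in kb. Error bars on called peaks are standard errors, and ticks at the bottom mark the 6 and 4 peaks not tested. Most called peaks lie above 0, and the 2 lower peaks of type II sit together at 721 and 726 kb, between groups of higher ones.

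The largest change of either window was in the first part of the type I cluster, at chr11:99369148-99370342. It gave 4.29, 2.76 and 3.84 CPM in naive replicates 1 to 3 and 43.9, 37.6 and 36.5 CPM in primary replicates 1 to 3. The naive values rest on 5, 15 and 9 reads and the primary values on 154, 71 and 77. All 3 lines were high to about the same degree, and the groups were far apart. The log2 fold change was 3.52 (SE 0.38, adjusted p = 1.087e-06, edgeR), an 11.5-fold difference. The neighbouring peak at chr11:99375394-99375998 had 17.2 ± 3.06 CPM in naive and 30.5 ± 6.48 CPM in primary libraries (SD, n = 3 each), and the edgeR test did not call it (adjusted p = 0.08763).

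A stretch of 11 consecutive tested peaks around it, from chr11:99326155 to 99443297, had log2 fold changes above 0 throughout (0.05 to 3.52), with 3 of them called. Summed over these peaks the signal was 214, 205 and 242 CPM in naive and 378, 408 and 358 CPM in primary libraries. Such stretches were picked out after the values were seen, so their sums carry no test. At the far end of the stretch, chr11:99441581-99443297 had 32.6, 19.7 and 43.1 CPM in naive and 63.0, 147 and 92.5 CPM in primary libraries. The groups did not overlap, and primary replicate 2 was highest (log2 fold change 1.69, SE 0.31, adjusted p = 0.001177, edgeR). The narrow peak chr11:99329898-99330360 rose from 3.67 ± 1.44 to 12.6 ± 0.847 CPM (SD, n = 3 each; adjusted p = 0.01765, edgeR), and lost its call without naive replicate 2 (log2 fold change 1.46, adjusted p = 0.129).

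Further along, chr11:99481551-99483106 gave 29.2, 22.4 and 59.8 CPM in naive and 87.6, 113 and 61.2 CPM in primary libraries. Naive replicate 3 came close to primary replicate 3 there. The log2 fold change was 1.24 (SE 0.31, adjusted p = 0.01095, edgeR), and 0.92 without naive replicate 2 (adjusted p = 0.0745). Beyond chr11:99521351 no peak was listed for 191.1 kb, the widest gap in either window, and a gap of 100.3 kb followed after 3 more peaks. The median gap between neighbouring peaks was 6.24 kb in the type I window, 6.21 kb in the type II window and 15.2 kb over the table. The 4 peaks from there to chr11:99851644 were not called, with log2 fold changes from -0.36 to 0.79 (lowest adjusted p = 0.2503, edgeR).

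The last part of the type I cluster held the other 3 peaks that rose. At chr11:100115577-100117419 accessibility was 9.44, 15.1 and 20.9 CPM in naive and 47.3, 56.1 and 45.1 CPM in primary libraries. The lines lay close together and well above every naive library (log2 fold change 1.66, SE 0.29, adjusted p = 0.0003862, edgeR). The wide peak chr11:100068698-100071441 had 27.5, 12.3 and 26.5 CPM in naive and 37.9, 116 and 60.2 CPM in primary libraries. Here the highest line was 3.06-fold above the lowest, with primary replicate 1 at the bottom and primary replicate 2 at the top. Its log2 fold change was 1.75 (SE 0.39, adjusted p = 0.005817, edgeR). Primary replicate 2 was again highest at chr11:100076378-100077207, with 10.8, 31.8 and 13.3 CPM in the primary and 6.86, 4.59 and 6.83 CPM in the naive libraries (log2 fold change 1.63, adjusted p = 0.02121, edgeR). Without that library the log2 fold change was 1.01 (adjusted p = 0.267), and without naive replicate 2 it was 1.41 (adjusted p = 0.146).

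These 3 belonged to a stretch of 9 consecutive peaks above 0, from chr11:100028015 to 100136375, whose summed signal was 155, 172 and 191 CPM in naive and 236, 380 and 276 CPM in primary libraries. The single type I peak that fell, chr11:99061022-99061943, lay near the start of the window. It gave 66.1, 55.3 and 51.7 CPM in naive and 41.9, 33.9 and 27.0 CPM in primary libraries. The groups did not overlap but the step was small (log2 fold change -0.73, SE 0.24, adjusted p = 0.04612, edgeR). The call was lost in 12 of 16 alternatives, among them the removal of any library but primary replicate 1. The log2 fold change was -0.64, -0.76 and -0.81 without naive replicates 1, 2 and 3 (adjusted p = 0.139, 0.121 and 0.0714), and -0.72 and -0.57 without primary replicates 2 and 3 (adjusted p = 0.107 and 0.218). Total-count scaling gave -0.67 (adjusted p = 0.0552).

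The strongest type I peaks were not called. The highest was chr11:100006374-100007820, with 184, 220 and 165 CPM in naive and 181, 191 and 120 CPM in primary libraries. Naive and primary values overlapped (log2 fold change -0.22, SE 0.20, adjusted p = 0.5282, edgeR). The next, chr11:99974332-99975406, chr11:100018797-100019783, chr11:100148161-100148794 and chr11:100029329-100030869, had log2 fold changes of 0.16, 0.08, -0.16 and 0.14, with edgeR's adjusted p between 0.6768 and 0.8304. With abundance-trended offsets the values at 100006374 and 100148161 were 0.02 and 0.06 instead.

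In the last 180.3 kb of listed type II peaks, from chr15:101716649 to 101896929, 8 of 21 tested peaks rose and 2 fell. Over all tested peaks 8% rose and 6.4% fell. The summed signal of the 23 listed peaks here was 2116, 2226 and 1798 CPM in naive and 1786, 2147 and 1767 CPM in primary libraries. The groups overlapped, and the primary mean was the lower one. The strongest peaks of both windows lay here. At chr15:101846543-101848773 the naive libraries had 574, 639 and 498 CPM and the primary libraries 489, 498 and 469 CPM. At chr15:101834261-101837707 they had 471, 520 and 397 CPM against 313, 423 and 350 CPM. Neither was called (log2 fold changes -0.23 and -0.36, SE 0.16 and 0.17, adjusted p = 0.3627 and 0.1709, edgeR), although the first had every primary library below every naive one, by a narrow margin. With abundance-trended offsets the first was 0.08 and the second -0.06.

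Just before this pair lay the peaks that fell. The value at chr15:101821138-101821759 was 80.6, 98.7 and 66.2 CPM in naive and 33.1, 31.2 and 25.1 CPM in primary libraries. All 3 lines were alike and the groups were well apart (log2 fold change -1.46, SE 0.24, adjusted p = 0.0001521, edgeR), a 2.75-fold loss. At chr15:101824752-101826780, the fourth strongest peak of the window, the naive libraries gave 299, 259 and 149 CPM and the primary libraries 105, 129 and 102 CPM. Naive replicate 3 was the lowest of its group and still above every line (log2 fold change -1.07, SE 0.22, adjusted p = 0.001504, edgeR). Taken with their neighbours up to 101848773, 6 consecutive tested peaks had log2 fold changes below 0, from -1.46 to -0.12. Their summed signal was 1566, 1638 and 1255 CPM in naive and 1062, 1211 and 1062 CPM in primary libraries. Upstream, chr15:101804135-101808267 had 179 ± 11.9 CPM in naive and 127 ± 22.2 CPM in primary libraries (SD, n = 3 each) without overlap, and was not called by edgeR (adjusted p = 0.07224).

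On the other side of the strong pair the direction turned after a gap of 6973 bp. The peak chr15:101855746-101857050 had 7.72, 3.12 and 9.40 CPM in naive and 43.6, 42.3 and 46.0 CPM in primary libraries. Naive values rest on 9, 17 and 22 reads and primary values on 153, 80 and 97. The lines were nearly equal and far above the naive libraries, a 7.11-fold difference (log2 fold change 2.83, SE 0.37, adjusted p = 1.435e-05, edgeR). This was the second largest rise of the members, and these 2 were the only members called with an at least 4-fold rise. All 7 tested peaks from here to chr15:101896929 had log2 fold changes above 0, and 4 were called. Summed, they gave 193, 218 and 214 CPM in naive and 391, 470 and 356 CPM in primary libraries.

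Among those 7, the strongest was chr15:101875372-101877533, with 61.8, 50.5 and 80.7 CPM in naive and 158, 207 and 131 CPM in primary libraries. The groups were well apart (log2 fold change 1.37, SE 0.22, adjusted p = 0.0001349, edgeR). A weak peak, chr15:101886487-101887128, rose from 1, 32 and 11 reads (0.858, 5.88 and 4.70 CPM) to 50, 33 and 35 reads (14.3, 17.5 and 16.6 CPM; adjusted p = 0.01069, edgeR). At chr15:101863958-101865466 the change was smaller, from 29.1 ± 3.85 to 54.4 ± 11.1 CPM (SD, n = 3 each; log2 fold change 0.90, adjusted p = 0.01658, edgeR). That call was lost without naive replicate 3 (0.79, adjusted p = 0.0911) or primary replicate 1 (0.73, adjusted p = 0.0808). Ahead of these 3, chr15:101858403-101859504 had 62.6, 97.6 and 69.2 CPM in naive and 75.9, 107 and 83.5 CPM in primary libraries, which overlapped (adjusted p = 0.6429, edgeR).

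**Figure D2:**
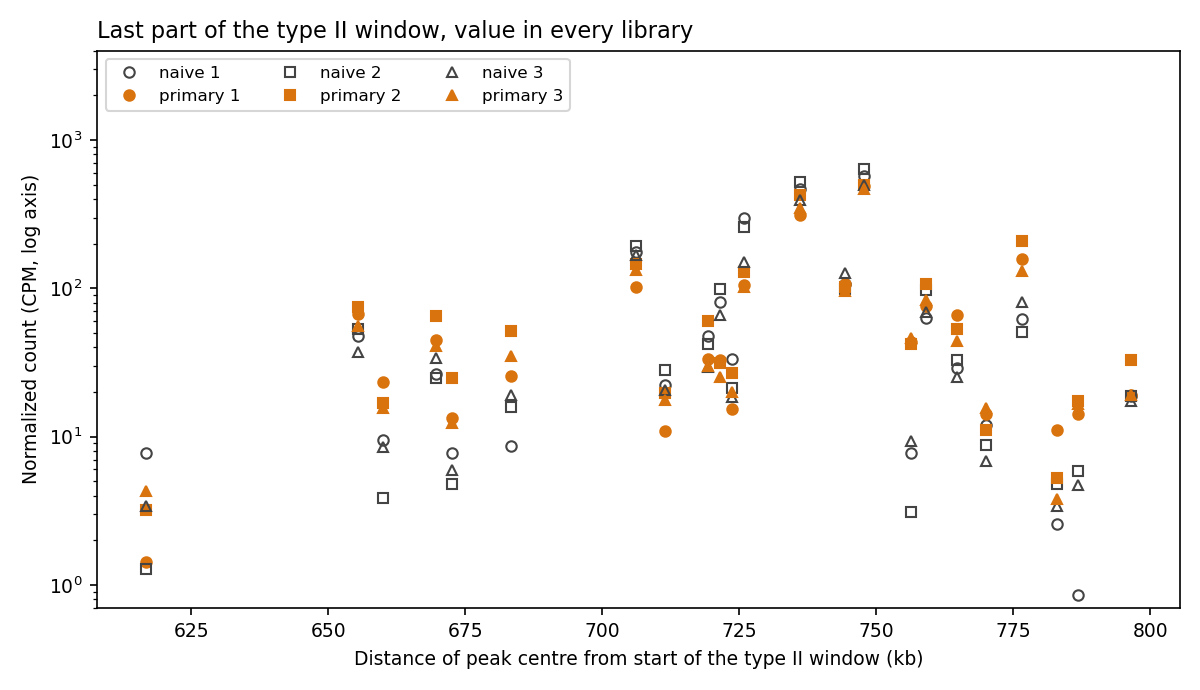
Normalized count (CPM, log axis) in each library for peaks at least 600 kb from the start of the type II window, against the distance of the peak centre in kb. Open dark symbols are naive and filled orange symbols primary libraries, with one symbol shape per replicate number. The primary symbols lie below the naive ones at 721 and 726 kb, and above them at 756 kb, 776 kb and 787 kb.

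Ahead of the strong peaks, 4 neighbours from chr15:101759641 to 101783874 rose. They were weaker, with naive means of 7.28, 28.4, 6.16 and 14.5 CPM and primary means of 18.7, 50.1, 16.9 and 37.4 CPM. The fitted differences were 2.76-fold, 1.76-fold, 2.83-fold and 2.45-fold, with adjusted p = 0.02549, 0.03825, 0.02713 and 0.009672 (edgeR). Every one of the 4 was separated between the groups, but each lost its call when 1 of several libraries was removed. Without naive replicate 2 the adjusted p-values were 0.192, 0.192, 0.154 and 0.0586. Without primary replicate 2 the last 3 had adjusted p = 0.232, 0.198 and 0.0843, and without primary replicate 1 the first had 0.0756. Without naive replicate 3 those at 101769205 and 101772342 had 0.0537 and 0.0774, and without naive replicate 1 that at 101769205 had 0.0918. With an offset per library and chromosome that peak had 0.0547.

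The middle of the type II window was thinly covered, with 109.2 kb free of listed peaks before chr15:101524582. The 3 peaks of the small block that follows, 17.5 kb long, had a summed signal of 42.9, 23.1 and 40.1 CPM in naive and 52.8, 170 and 84.4 CPM in primary libraries. Both called peaks of this block rose, and the lines were unequal. At chr15:101524582-101526367 the values were 17.2, 12.9 and 13.7 CPM in naive and 25.7, 82.0 and 44.1 CPM in primary libraries (log2 fold change 1.81, SE 0.35, adjusted p = 0.001228, edgeR). At chr15:101527665-101528441 they were 13.7, 6.25 and 12.4 CPM and 19.7, 68.3 and 30.4 CPM (edgeR, adjusted p = 0.004221, log2 fold change 1.94, SE 0.43). Primary replicate 2 was highest and primary replicate 1 lowest of the lines at both. Without primary replicate 2 the log2 fold change of the second peak was 1.27 and it was no longer called (adjusted p = 0.0534).

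In the first 301.5 kb of listed peaks, starting at chr15:101113814, 4 of 27 tested peaks rose, where 8% of all tested peaks rose. The strongest of the 4, chr15:101217691-101219079, had 61.8, 63.2 and 52.1 CPM in naive and 127, 197 and 117 CPM in primary libraries. Naive libraries were nearly equal and every line stood above them (log2 fold change 1.31, SE 0.22, adjusted p = 0.0002062, edgeR). A similar step was seen at chr15:101285064-101286160, from 18.0, 17.8 and 20.9 CPM to 34.8, 61.4 and 42.2 CPM (log2 fold change 1.27, adjusted p = 0.003434, edgeR).

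The other 2 of this part were weak. At chr15:101337461-101338049 the primary libraries had 24.0, 7.94 and 12.8 CPM and the naive ones 6.01, 4.23 and 5.98 CPM, and primary replicate 1 was highest (adjusted p = 0.03489, edgeR). Its call was lost without primary replicate 1 (log2 fold change 0.99, adjusted p = 0.269) or without naive replicate 1, 2 or 3 (adjusted p = 0.0543, 0.182 and 0.0748), and with abundance-trended offsets (adjusted p = 0.0597). At chr15:101393255-101395006 accessibility was 10.1 ± 5.37 CPM in naive and 22.2 ± 4.25 CPM in primary libraries (SD, n = 3 each; adjusted p = 0.0432, edgeR). That call was lost without naive replicate 2 or 3 (adjusted p = 0.247 and 0.147) or primary replicate 2 or 3 (adjusted p = 0.138 and 0.0822), and with abundance-trended offsets (adjusted p = 0.0542). Strong peaks with no call lay nearer the start of the window, such as chr15:101161425-101163126 with 187 ± 32.1 CPM in naive and 187 ± 52.3 CPM in primary libraries (adjusted p = 0.985, edgeR) and chr15:101166735-101167645 with 151 ± 21.3 and 188 ± 40.9 CPM (adjusted p = 0.3222; 0.0129 with abundance-trended offsets, log2 fold change 0.54).

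**Figure D3:**
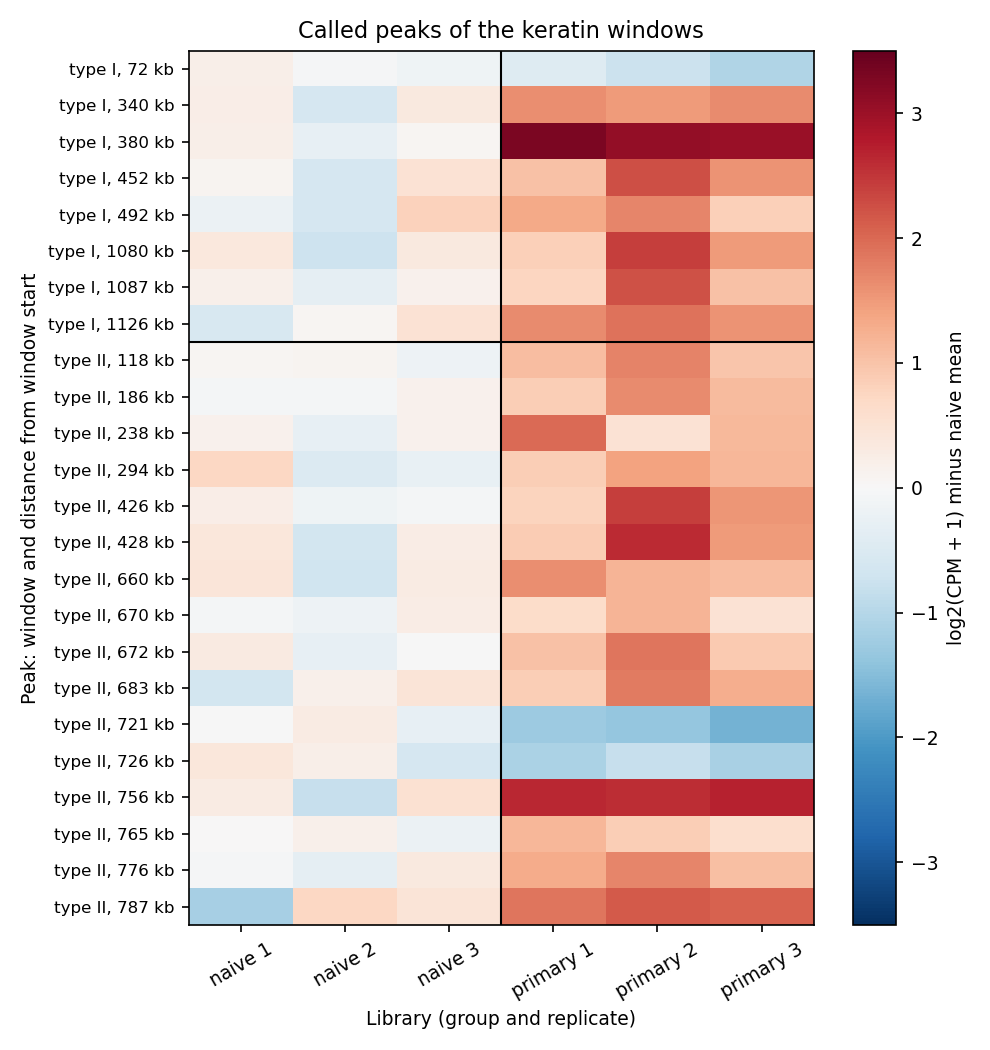
The 24 called peaks (rows, by window and distance from its start) in the 6 libraries (columns), coloured by log2(CPM + 1) minus the naive mean of the peak. Lines divide the groups and the windows. The 3 rows that fell are blue in all 3 primary libraries, and the other 21 are red there, most often deepest in primary replicate 2.

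The primary lines differed in the size of the change at the called members. Among the 21 that rose, 19 had an at least 2-fold difference, and primary replicate 2 was the highest line at 15. Neither count was taken over all called peaks of the table, so neither can be read as particular to the keratin windows. That library also had the highest median over type II peaks, 0.65 in log2(CPM + 1) relative to the naive mean, against 0.11 in primary replicate 1 and 0.22 in primary replicate 3. On the rest of chromosome 15 the same library had 0.09. Without primary replicate 2, edgeR called 9 type II peaks higher and 2 lower, and 6 type I peaks, each higher, where 9.76% of all tested peaks were called. The part of this library in the counts beyond those values was not tested.

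Calls were spread over weak and strong members. Of the 10 strongest, 5 in each window, 1 was called, beside 14.4% of all tested peaks, and it fell. Of the 28 strongest tested members (median 97.7 CPM) 4 rose and 1 fell, and the median log2 fold change was 0.06. Of the next 28 (median 34.4 CPM) 9 rose and 2 fell, with a median of 0.60. The following 28 and the weakest 29 had 4 calls each, again higher, with medians of 0.13 and 0.42.

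**Figure D4:**
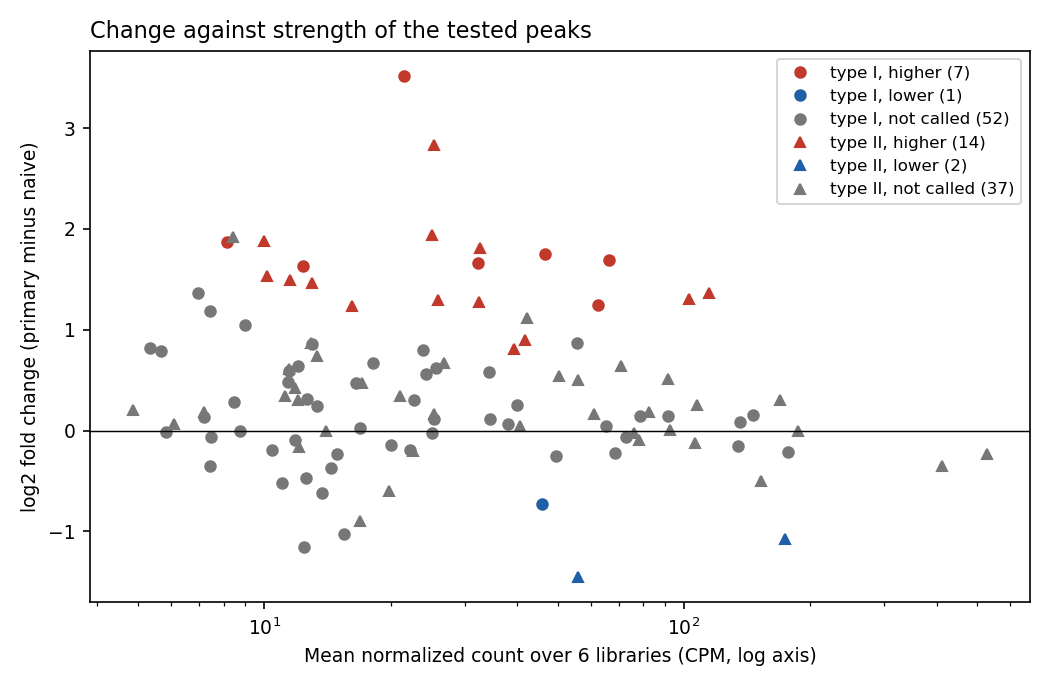
Log2 fold change (primary minus naive) against the mean normalized count over the 6 libraries (CPM, log axis) for the 113 tested members, as circles for type I and triangles for type II, coloured by call. Red points reach from about 8 CPM to over 100 CPM, and the 2 points furthest to the right, near 412 and 528 CPM, were not called.

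Summed over all 66 type I peaks the signal was 1796, 1959 and 1875 CPM in naive and 2235, 2477 and 1939 CPM in primary libraries. Primary replicate 3 lay within the naive range. Summed over the 57 type II peaks it was 3389, 3534 and 2960 CPM in naive and 3130, 4355 and 3206 CPM in primary libraries, and the groups overlapped. The means were 1876 ± 81.5 and 2217 ± 269 CPM for type I and 3294 ± 298 and 3564 ± 686 CPM for type II (SD, n = 3 each). The direction for type II rested on primary replicate 2: the difference of mean log2 sums was 0.10 with all libraries and -0.06 without it. No p-value is given for these sums, which are scores over chosen members.

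**Figure D5:**
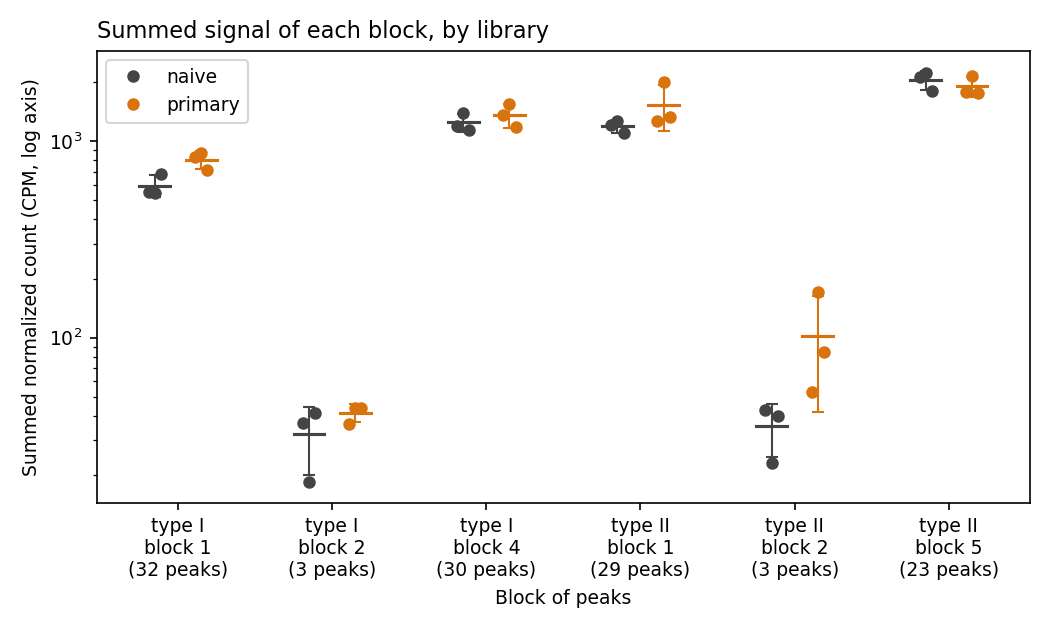
Summed normalized count (CPM, log axis) of each block of at least 3 peaks, where a block ends at a gap of over 50 kb, with 1 point per library. Horizontal lines are means and error bars SD over 3 libraries. The groups stand apart in block 1 of type I (547 to 682 CPM naive, 714 to 871 CPM primary) and in block 2 of type II (23.1 to 42.9 CPM naive, 52.8 to 170 CPM primary), and just miss each other in block 1 of type II (highest naive 1268, lowest primary 1272 CPM). They overlap in the other blocks shown, and in block 5 of type II the primary mean is lower (1900 against 2047 CPM naive).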

How the data were processed

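The authors deposited 1 table of raw read counts per peak for 6 ATAC-seq libraries, without normalization. Per the labels' protocols, 50000 cells per library were treated with Tn5 at 37 °C for 30 min and sequenced in pairs of 75-base reads. The submitters' processing notes name Bowtie, Picard, SAMtools, MACS2 and bedtools and the build mm9. The sources used here do not give how peaks were chosen, how duplicates were handled or whether read ends were shifted. Duplicates left in would raise counts, and peaks that the list leaves out cannot show a change.

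Counts were fitted for the whole table in R 4.3.3 with edgeR 4.0.16 (filterByExpr, TMM, robust quasi-likelihood F test, 2-sided, group as the single term), and p-values were adjusted by Benjamini-Hochberg over 36179 tested peaks. Fold changes carry SEs from the F statistic. The test was also run on counts simulated with dispersions estimated from these libraries. Such counts are drawn independently, so they cannot show the effect of shared cultures. Named were all called members and the 5 strongest of each window; stretches and blocks were defined after the values were seen. Alternatives used limma 3.58.1, DESeq2 1.42.0 and other scalings, filters and sets of libraries. The members and lists were chosen with earlier results of these data known. Lists of keratins by role, keratin partners and cell type markers had been planned for an annotation of mm9. None was used here, so they have no values and the labelled cell type was not checked. Replicate numbers were not taken to pair the libraries, since the correlations between deviations from the group means were -0.24, -0.11 and 0.01 for libraries 1, 2 and 3.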

Additional observations from a re-analysis of the deposited data

How the results depend on the processing

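None of the 24 called members changed sign in any of 16 alternatives, and 11 kept their call in all of them, 4 of type I and 7 of type II, 10 higher and 1 lower. All alternatives use the same libraries. Other scalings, DESeq2, limma-voom, filters and chromosome offsets gave 7 to 10 type I and 16 to 18 type II calls against 8 and 16. Of all tested peaks these settings called 12.2% to 17.6%, against 14.4%. Leaving out 1 library gave 4 to 10 type I and 10 to 16 type II calls, lowest in both without naive replicate 2, the deepest library, and the cause was not tested. The share called over all tested peaks then ran from 5.82% to 14.5%, also lowest without naive replicate 2. With glmTreat at a fold of 1.5, which by construction demands a larger change, 4 type I and 8 type II peaks were called. Of all tested peaks it called 5.99%. At chr15:101824752-101826780 it was the one alternative that ended the call (adjusted p = 0.0596). The fit with a replicate block called 7 type I and 11 type II peaks, and 9.78% of all tested peaks. It ended 7 of the 24 calls, those at 99061022 and 100076378 on chromosome 11 and at 101337461, 101393255, 101759641, 101769205 and 101772342 on chromosome 15 (adjusted p = 0.0609, 0.0736, 0.111, 0.092, 0.058, 0.0832 and 0.0773). Each library's best correlation was with another number. With 1 library left out, the difference of mean log2 sums ran from 0.15 to 0.34 for type I and from -0.06 to 0.20 for type II. The median log2 fold change of all tested peaks stayed between -0.01 and 0.05 over all settings. Peaks under about 10 CPM rest on few reads in naive replicate 1, where 1 read is worth 0.858 CPM.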
